A study of Mus musculus with 16 samples.

Results

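The adhesion G protein-coupled receptors are the subject here. The reason is 1 of them, Adgrb3, whose transcripts were near absent from WT myocyte libraries and plentiful in B3AR-Tg myocyte libraries. The 10 genes described were taken by symbol from a table of 35682 genes: Adgrb1, Adgrb2, Adgrb3, Adgrl1, Adgrl2, Adgrl3, Adgrl4, Adgrf5, Adgrd1 and Adgrg1. Adgrb3 was chosen by its counts in the comparison of B3AR-Tg with WT given here, so its values are a description and carry no test. The other 9 were named with results of these data already known, so they are also read beside all 30 genes of the table whose symbols belong to the family (Adgr and Celsr genes). Of the 10 genes, 6 passed the filter on low counts and 4 did not (Adgrb1, Adgrb2, Adgrl3 and Adgrd1).

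RNA was sequenced from ventricular myocytes of 16 adult mice, 8 carrying the transgene B3AR-Tg and 8 WT littermates, with 1 library per animal. All 16 animals had undergone TAC (transverse aortic constriction, a surgical narrowing of the aorta that loads the left ventricle) and were studied 9 weeks later, so both groups carry the pressure load and no unoperated animal enters the comparison. The cells were obtained by Langendorff perfusion of the heart and kept on plates for 1 hour, and ribosomal RNA was removed from 500 ng of RNA before stranded library preparation. Age, sex, strain, and the promoter and species of the transgene are not given in the labels, nor is the number of founder lines.

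Adhesion receptors carry a long extracellular part that is cut from the membrane-spanning part at a conserved site and stays bound to it, and ligand binding or mechanical pull exposes a tethered peptide that activates the receptor. The B group (brain-specific angiogenesis inhibitors) is best known from neurons, where Adgrb3 binds C1q-like proteins at synapses, and its members signal through ELMO and DOCK proteins to the GTPase Rac. The L group holds the latrophilins, which bind teneurins and FLRT proteins, and the endothelial receptor Adgrl4. In the heart, Adgrl4 and Adgrf5 are known chiefly from the endothelium.

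The RefSeq promoter table (GRCm38.p6) held 8 of the 10 genes. Windows of 250 bases upstream of the annotated start are shown for Adgrb3, whose transcripts separated the genotypes, for its relative Adgrb2, and for Adgrl4 and Adgrf5, the endothelial receptors; for Adgrf5 the first of its 2 listed starts is shown. They lie at chr1:25829708-25829957 (minus strand), chr4:129984620-129984869 (plus), chr3:151437632-151437881 (plus) and chr17:43360181-43360430 (plus), and read 5′ to 3′. Capitals mark matches on either strand to the GC box GGGCGG or the ETS core CCGGAA.

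Adgrb3: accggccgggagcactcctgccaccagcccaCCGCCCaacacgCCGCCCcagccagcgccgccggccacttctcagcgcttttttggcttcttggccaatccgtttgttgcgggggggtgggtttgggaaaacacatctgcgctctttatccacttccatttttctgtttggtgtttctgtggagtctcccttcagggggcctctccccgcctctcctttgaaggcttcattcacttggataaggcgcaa

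Adgrb2: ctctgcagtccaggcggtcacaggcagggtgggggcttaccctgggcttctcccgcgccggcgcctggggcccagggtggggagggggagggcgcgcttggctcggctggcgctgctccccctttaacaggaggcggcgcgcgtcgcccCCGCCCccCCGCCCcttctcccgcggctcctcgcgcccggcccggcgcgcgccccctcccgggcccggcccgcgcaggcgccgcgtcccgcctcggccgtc

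Adgrl4: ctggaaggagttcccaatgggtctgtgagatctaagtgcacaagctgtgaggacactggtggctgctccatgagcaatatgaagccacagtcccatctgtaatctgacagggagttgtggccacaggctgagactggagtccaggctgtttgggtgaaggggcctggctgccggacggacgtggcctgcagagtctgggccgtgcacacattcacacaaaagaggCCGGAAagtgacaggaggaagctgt

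Adgrf5: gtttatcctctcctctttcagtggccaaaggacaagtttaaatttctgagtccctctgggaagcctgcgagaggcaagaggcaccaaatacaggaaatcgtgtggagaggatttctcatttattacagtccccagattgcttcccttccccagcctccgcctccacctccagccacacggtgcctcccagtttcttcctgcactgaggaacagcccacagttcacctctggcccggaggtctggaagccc

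Adgrb3 and Adgrb2 each held 2 GGGCGG matches, all 4 as CCGCCC on the strand shown, and 32.7% of all 32851 windows in the table held at least 1. Adgrl4 held 1 CCGGAA match, a motif found in 12.0% of all windows. The Adgrb3 window contained 14 CpG pairs and the Adgrb2 window 35, against a median of 6. None of the 4 windows held TATAAA (12.4% of all windows), TGACGTCA (1.55%) or AGATAA (9.99%) on either strand. No match in these windows overlapped a match to another of the 5 motifs, and the counts per gene do not show where transcripts began.

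Library totals ran from 5985335 to 14365864 counts. A gene was called when its adjusted p (edgeR quasi-likelihood test, Benjamini-Hochberg over 10945 tested genes) was under 0.05, which held for 537 genes, or 4.91% of those tested: 2.03% higher and 2.88% lower in B3AR-Tg. That number was 272 without WT replicate 4, 277 without B3AR-Tg replicate 5 and 345 without B3AR-Tg replicate 8. Levels are in CPM (counts as a share of the library total, scaled with TMM factors), and 3 counts, taken as the floor of detection, came to between 0.201 and 0.487 CPM. The 8 cardiomyocyte markers summed to 62510 to 85040 CPM in WT and 67840 to 104500 CPM in B3AR-Tg, matching the label. Markers of other cells were also present: 10 endothelial markers summed to 123 to 168 CPM in WT and 55.4 to 184 CPM in B3AR-Tg, and 8 fibroblast markers to 68.1 to 154 and 26.0 to 99.4 CPM. For 8 mural markers the ranges were 364 to 554 and 499 to 656 CPM, and for 8 leukocyte markers 4.39 to 18.1 and 0.971 to 8.64 CPM. Most of the mural sum came from Abcc9, whose WT mean was 334.5 ± 55.5 and B3AR-Tg mean 455.2 ± 46.4 CPM (SD). Abcc9 was called higher (log2 fold change 0.44, edgeR adjusted p = 0.0132). Of the 7 mural markers tested, however, 5 had a negative fold change and 2 a positive one, with a median log2 value of −0.34. The mural sum therefore does not describe the list as a whole. In such bulk samples, fewer cells of a type and less RNA per cell cannot be told apart.

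Adgrb3 (ENSMUSG00000033569, on chromosome 1) was at or under the floor in every WT library. WT replicates 1 to 8 held 0, 2, 1, 3, 0, 0, 2 and 1 counts. B3AR-Tg replicates 1 to 8 held 612, 541, 379, 247, 562, 529, 485 and 723 counts, which came to 41.0, 47.8, 39.6, 40.1, 51.6, 51.8, 37.8 and 58.0 CPM. All 8 transgenic animals lay far above all 8 WT animals, and the groups did not overlap. Among all tested genes the groups failed to overlap in 0.448%, and 0.201% had every B3AR-Tg animal above every WT animal.

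The B3AR-Tg mean for Adgrb3 was 45.9 ± 7.39 CPM (SD, n = 8), at least 131-fold higher than the mean WT floor of 0.351 CPM. The lowest transgenic animal was at least 85.6-fold above the highest WT floor. The fitted log2 fold change of 8.37 (SE 0.24) depends on the prior count and is no bound. The next highest log2 fold change among tested genes was 2.36, for Grin2c. Adgrb3 was the only gene of the table with every WT library at or under 3 counts and every B3AR-Tg library over 3, and 0 genes showed the reverse.

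Within the transgenic group the highest animal for Adgrb3 exceeded the lowest by 1.54-fold. The coefficient of variation was 16.1%, beside a median of 13.05% for 2747 tested genes whose B3AR-Tg mean lay within 2-fold of it, and 69.1% of those genes varied less. Its B3AR-Tg mean exceeded that of 81.1% of tested genes, a comparison of CPM that takes no account of gene length.

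**Figure D1:**
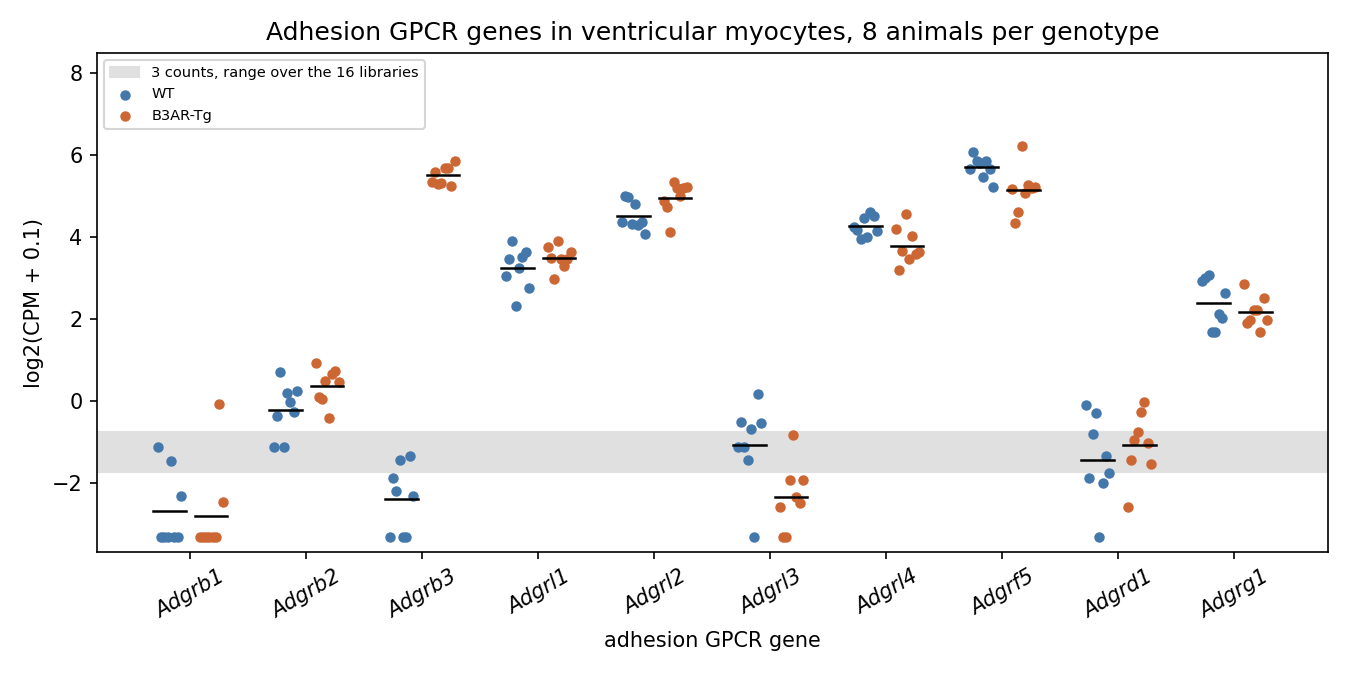
Level of each of the 10 adhesion receptors in each animal, as log2(CPM + 0.1) on the vertical axis; points are the 8 WT and 8 B3AR-Tg animals, black lines their means, and the grey band the range of 3 counts over the 16 libraries. Adgrb3 is at the floor in WT and between 37.8 and 58.0 CPM in B3AR-Tg, while the groups of the other tested genes overlap.

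Of the other B-group receptors, Adgrb1 was near the floor in both genotypes, and Adgrb2 was low but over the floor in most animals. Adgrb1, an engulfment receptor for phosphatidylserine, held 3, 0, 0, 0, 2, 0, 0 and 1 counts in WT replicates 1 to 8, and 0, 0, 0, 0, 0, 0, 11 and 1 counts in B3AR-Tg replicates 1 to 8. Only B3AR-Tg replicate 7 was over the floor. That library also held 26 counts of Snap25 and 28 of Syt1, both of the neuronal secretory machinery, where each of the other 15 animals held at most 2 of either. These 2 genes were singled out after their values were seen, and other markers of the list were within or close to the range of the other animals: it held 2 counts of Tubb3 (up to 14 in WT), 51 of Uchl1 (up to 123 in WT), 35 of Dbh (up to 33 in WT) and 3 of Nefl (up to 2 in WT). Its Adgrb3 level, 37.8 CPM, was the lowest of the 8 transgenic animals.

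Gfap, an intermediate filament gene of glia, had 1 count in 1 of the 16 libraries. The part of neural RNA in the Adgrb1 counts was not tested.

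Adgrb2 was over the floor in most animals of both groups. Its WT counts were 3, 8, 13, 4, 8, 6, 5 and 11, and its B3AR-Tg counts were 27, 11, 9, 8, 7, 15, 20 and 16. The means were 0.835 ± 0.396 and 1.25 ± 0.378 CPM (SD, n = 8 each), and the groups overlapped. A fit of all genes without the low-count filter gave Adgrb2 a log2 fold change of 0.61 with adjusted p = 0.391 (edgeR quasi-likelihood test). The gap in Adgrb3 between the genotypes had no counterpart of like size in Adgrb1 or Adgrb2.

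Adgrl1 and Adgrl2 were the latrophilins well above the floor in these libraries, and which cell types held their transcripts was not tested. Adgrl1 ran from 4.91 through a median of 10.2 to 14.95 CPM in WT and from 7.83 through 11.1 to 14.8 CPM in B3AR-Tg, so the transgenic range lay inside the WT range. Its log2 fold change was 0.22 (SE 0.18) with adjusted p = 0.545 (edgeR quasi-likelihood test), and 1.96 standard errors either side reach from −0.14 to 0.58.

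Adgrl2 ran from 16.7 through 20.5 to 31.9 CPM in WT and from 17.3 through 34.4 to 40.6 CPM in B3AR-Tg. In 7 of 8 transgenic animals it lay above the WT median, and in 5 above every WT animal. Its log2 fold change of 0.44 (SE 0.16; 1.96 standard errors reach from 0.12 to 0.75) had adjusted p = 0.127 by the edgeR quasi-likelihood test and was not called. B3AR-Tg replicate 3 held the low value of 17.3 CPM, and without it the log2 fold change was 0.53 with adjusted p = 0.0315 by the same edgeR test.

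Adgrl3, the third latrophilin, was sparse. WT replicates 1 to 8 held 3, 7, 3, 3, 4, 0, 7 and 6 counts, and B3AR-Tg replicates held 1, 0, 0, 1, 5, 1, 1 and 2. The sums were 33 and 11 counts, so WT held more, but 4 of 8 WT libraries and 7 of 8 B3AR-Tg libraries were at or under the floor. Without the low-count filter its adjusted p was 0.18 (edgeR quasi-likelihood test).

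The 2 receptors known from the endothelium had lower medians in B3AR-Tg, and neither passed the test over all genes. Adgrl4, studied for its part in vessel growth, ran from 15.5 through 18.5 to 24.3 CPM in WT and from 9.10 through 12.5 to 23.7 CPM in B3AR-Tg. It lay below the WT median in 7 of 8 transgenic animals and below every WT animal in 5. Its log2 fold change was −0.44 (SE 0.16; 1.96 standard errors reach from −0.76 to −0.12) with adjusted p = 0.125 (edgeR quasi-likelihood test).

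Adgrf5, known for limiting surfactant in the lung and for endothelial expression, ran from 37.4 through 53.3 to 67.2 CPM in WT and from 20.4 through 36.6 to 74.9 CPM in B3AR-Tg. It lay below every WT animal in 6 transgenic animals, and in B3AR-Tg replicate 4 it lay above every WT animal. Its log2 fold change was −0.49 (SE 0.19; 1.96 standard errors reach from −0.86 to −0.12) with adjusted p = 0.143 (edgeR quasi-likelihood test). Without B3AR-Tg replicate 4, the shallowest library, the values were −0.70 with adjusted p = 0.00913 for Adgrf5 and −0.57 with adjusted p = 0.0279 for Adgrl4, by the same edgeR test.

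Endothelial markers were lower in most of the same animals. All 10 had a negative fold change, with a median log2 value of −0.50 beside 0.01 over all tested genes. Of the 10, 4 were called lower (Pecam1, Flt1, Emcn and Esam), beside 2.88% of all tested genes. The endothelial sum was highest, at 184 CPM, in B3AR-Tg replicate 4 and lowest, at 55.4 CPM, in B3AR-Tg replicate 2, with the other 6 transgenic animals between 89.1 and 106 CPM.

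Across the 8 transgenic animals, Adgrf5 followed the endothelial marker score (the mean log2 CPM of the markers) with Pearson r = 0.947 (exact permutation p = 0.00265, adjusted p = 0.0292) and Spearman rho = 0.738 (exact permutation p = 0.0458, adjusted p = 0.336). Adgrl4 followed it with r = 0.873 (exact permutation p = 0.00253, adjusted p = 0.0292) and rho = 0.786 (exact permutation p = 0.0279, adjusted p = 0.307). Without the 2 animals farthest from the median score, r was 0.531 for Adgrf5 and 0.505 for Adgrl4, so both relations rest on those animals.

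Within WT the values for the endothelial score were r = 0.695 (exact permutation p = 0.0553, adjusted p = 0.405) and rho = 0.81 (exact permutation p = 0.0218, adjusted p = 0.307) for Adgrf5. For Adgrl4 they were r = 0.0487 (exact permutation p = 0.908, adjusted p = 0.921) and rho = 0.0238 (exact permutation p = 0.977, adjusted p = 0.977). Leaving out the 2 farthest animals gave r = 0.822 and 0.208. These belong to 22 relations of a tested receptor with endothelial or fibroblast markers within a genotype, of which 2 passed at an adjusted p under 0.05 by Pearson r and 0 when libraries were scaled by size only. Under that scaling r in B3AR-Tg was 0.95 for Adgrf5 and 0.88 for Adgrl4, with adjusted p = 0.0638 and 0.143 (exact permutation).

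For Adgrb3 the values against the endothelial score across the transgenic animals were r = −0.373 (exact permutation p = 0.413, adjusted p = 0.7), rho = −0.31 (exact permutation p = 0.462, adjusted p = 0.635) and r = −0.401 without the 2 farthest animals. The part of endothelial RNA in the values of Adgrl4 and Adgrf5 was not tested.

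**Figure D2:**
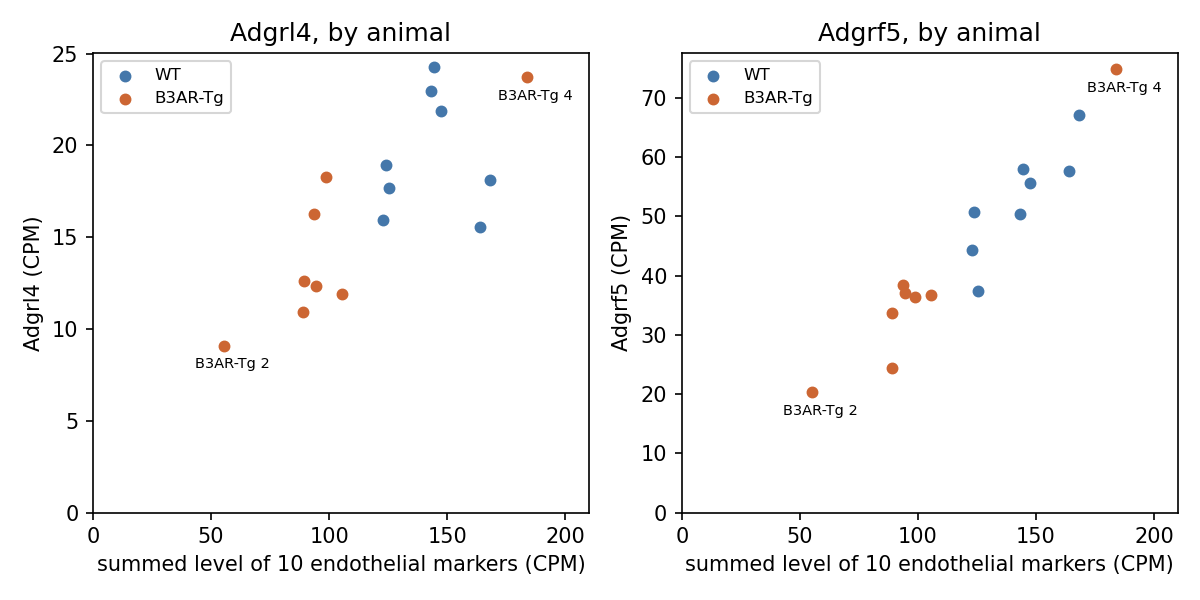
Levels of Adgrl4 (left) and Adgrf5 (right) in CPM against the summed CPM of 10 endothelial markers, 1 point per WT or B3AR-Tg animal. B3AR-Tg replicates 2 and 4, at 55.4 and 184 CPM of marker sum, lie at the ends of the transgenic group.

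Adgrd1 and Adgrg1 complete the 10. Adgrd1, a Gs-coupled receptor of the D group, held 7, 2, 4, 8, 0, 1, 2 and 2 counts in WT and 1, 3, 4, 3, 8, 9, 5 and 3 counts in B3AR-Tg, 26 and 36 in all, with adjusted p = 0.847 without the low-count filter (edgeR quasi-likelihood test). Adgrg1, a receptor for collagen III and transglutaminase 2, ran from 3.12 through 5.18 to 8.30 CPM in WT and from 3.13 through 4.21 to 7.10 CPM in B3AR-Tg. The transgenic range of Adgrg1 lay inside the WT range, and its log2 fold change of −0.29 (SE 0.23; 1.96 standard errors reach from −0.73 to 0.16) had adjusted p = 0.522 (edgeR quasi-likelihood test).

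Of the 5 tested receptors besides Adgrb3, 0 were called by edgeR, beside 4.91% of all tested genes, and 3 had an unadjusted p under 0.05 (Adgrl2, Adgrl4 and Adgrf5). The share of all tested genes under that unadjusted p was not counted, so such counts have no background beside them here. DESeq2 called 0 of the 5 and limma voom with sample weights called 2, Adgrl2 with a log2 fold change of 0.49 and Adgrl4 with −0.51 (limma adjusted p = 0.0484 for each). The sign of all 5 held in each of 24 other settings of the fit or sets of animals. Their log2 fold changes ran from −0.49 to 0.44 in the main comparison, against 8.37 for Adgrb3.

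Over the whole family, 10 of 30 genes passed the low-count filter and 2 had no count in any animal (Adgrg5 and Adgrg7). Besides Adgrb3, 0 of the 9 tested were called by edgeR, beside 4.91% of all tested genes. DESeq2 called 0 of the 9 and limma voom 2. An unadjusted p under 0.05 was found for 4, again with no share over all tested genes counted. The fourth was Celsr2, a cadherin of planar cell polarity, which ran from 0.982 through 2.38 to 5.81 CPM in WT and from 2.35 through 5.13 to 6.70 CPM in B3AR-Tg. Its log2 fold change was 0.78 (SE 0.30) with adjusted p = 0.149, and without WT replicate 3, which held the 5.81 CPM, it was 1.06 with adjusted p = 0.0306 (edgeR quasi-likelihood test). Adgre5, Adgra3 and Celsr1 had log2 fold changes of −0.16, 0.13 and 0.22 with adjusted p of 0.44, 0.501 and 0.6 by the same edgeR test.

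Within the family, Adgrb3 supplied 23.4 ± 4.37% of all counts in B3AR-Tg (SD, n = 8, from 15.6 to 27.4%) and 0.0716 ± 0.0732% in WT. The 30 genes together ran from 149.7 through a median of 202 to 257 CPM in B3AR-Tg and from 138.4 through 162 to 199 CPM in WT. Without Adgrb3 the mean sums were 154 ± 31.02 and 164 ± 20.02 CPM (SD, n = 8 each), a difference smaller than the spread between animals.

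**Figure D3:**
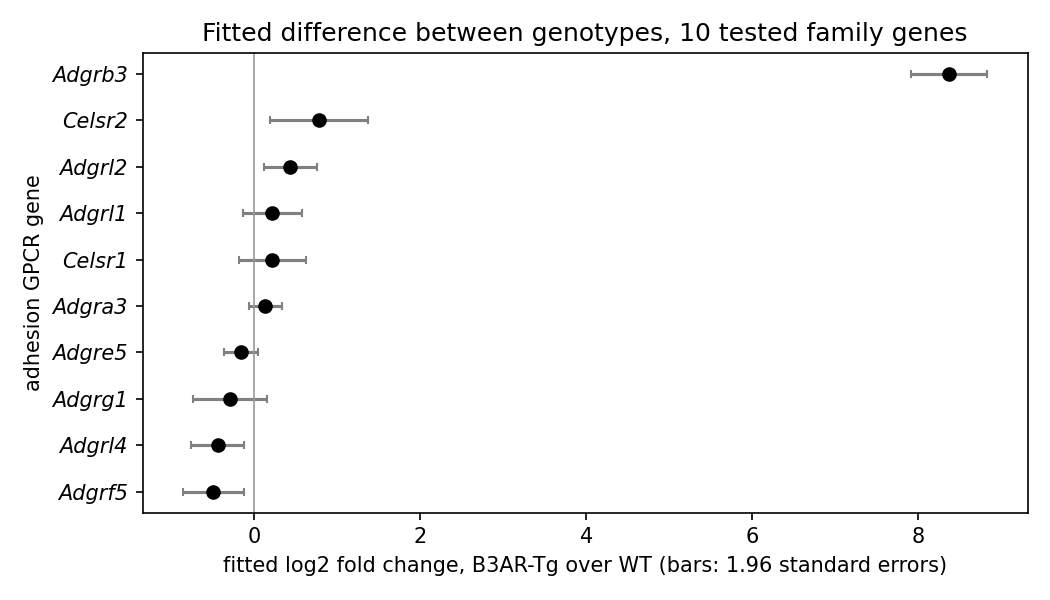
Log2 fold change (B3AR-Tg over WT, horizontal axis) of the 10 tested adhesion receptors; bars are 1.96 standard errors. Adgrb3 stands at 8.37 and the other 9 between −0.49 and 0.78.

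To compare levels between genes, CPM were divided by transcript length. With the length of the longest protein-coding transcript (GENCODE M21, 5.45 kb for Adgrb3), Adgrb3 had the highest level of the tested family in B3AR-Tg, 8.43 ± 1.36 CPM per kb, followed without overlap of the SDs by Adgrl2 at 5.29 ± 1.24 CPM per kb. Next on that scale in B3AR-Tg came Adgre5 (5.19 ± 0.666), Adgrf5 (4.43 ± 1.92), Adgra3 (4.36 ± 0.457) and Adgrl4 (3.51 ± 1.16 CPM per kb), each overlapping the neighbour above it. Adgrl1, Adgrg1, Celsr1 and Celsr2 stood below, at 1.40 ± 0.264, 1.25 ± 0.353, 0.868 ± 0.247 and 0.425 ± 0.156 CPM per kb.

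With the union of all annotated exons as the length, 18.6 kb for Adgrb3, its B3AR-Tg level was 2.48 ± 0.398 CPM per kb and it stood 4th, behind Adgrf5, Adgre5 and Adgrl4, with an SD that overlapped that of Adgrl4, next above it. Its place in the order therefore depends on the length used. In WT it was last on both scales, and Adgrf5 was first at 6.18 ± 1.07 CPM per kb of the longest transcript, followed by Adgre5 (5.78 ± 0.838), Adgrl4 (4.73 ± 0.793), Adgra3 (3.98 ± 0.66) and Adgrl2 (3.90 ± 0.984), each overlapping the one above.

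The genes beside Adgrb3 on chromosome 1 were examined next, in the gene order of GENCODE M21. Of the 5 tested genes on each side, 0 of 10 were called (edgeR, lowest adjusted p = 0.153), beside 4.91% of all tested genes. In 0 of 10 the groups failed to overlap, beside 0.448% of all tested genes. Log2 fold changes ran from −0.75 to 0.47 with a median of −0.03. Lmbrd1, a lysosomal cobalamin transporter gene and the nearest tested gene on one side, averaged 28.2 ± 4.11 CPM in the WT animals and 29.6 ± 3.68 CPM in the transgenic animals. Phf3, a regulator of RNA polymerase II elongation and the nearest on the other side, was at 46.0 ± 3.33 and 49.7 ± 2.88 CPM (SD, n = 8 each).

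Beyond them lay Ptp4a1 under 2 gene IDs (log2 fold changes 0.47 and 0.07), Rab23 (0.47) and Bag2 (−0.14) on the side of Phf3. On the side of Lmbrd1 lay Gm28438, Gm28437, Gm28661 and Gm29216 (−0.38, −0.50, −0.75 and −0.20), annotated as unprocessed pseudogenes. Their counts are uncertain where reads also match their parent genes. Their WT means were 3009, 7758, 4326 and 11370 CPM, against 28.2 CPM for Lmbrd1, the only other tested gene on that side. Where their reads came from was not tested, and the range and median of the neighbours include them.

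2 further genes of the table lie inside the span of Adgrb3 and were looked up after values were seen. Gm29214, a processed pseudogene on the same strand that shares 0 bases with an annotated Adgrb3 exon, held counts in 1 of 8 WT animals and 8 of 8 B3AR-Tg animals. Its WT counts were 0, 0, 0, 0, 0, 0, 0 and 1, and its B3AR-Tg counts were 6, 6, 2, 2, 8, 7, 2 and 8. Gm29214 matched Rpl9, a ribosomal protein gene, at 82.6% identity over 576 bases. Gm15702, on the opposite strand, held 1 count in 1 B3AR-Tg animal. Transcripts of Adgrb3 had no megablast match to those of Adgrb1, Adgrb2 or Adrb3. Their 5 best-scoring matches to other genes (Vmn1r18, Olfr715, Gm21926, D5Ertd615e and Fam172a) were short, 144 to 149 bases at 96.6 to 98.6% identity, and reads from such stretches could be assigned to either gene.

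**Figure D4:**
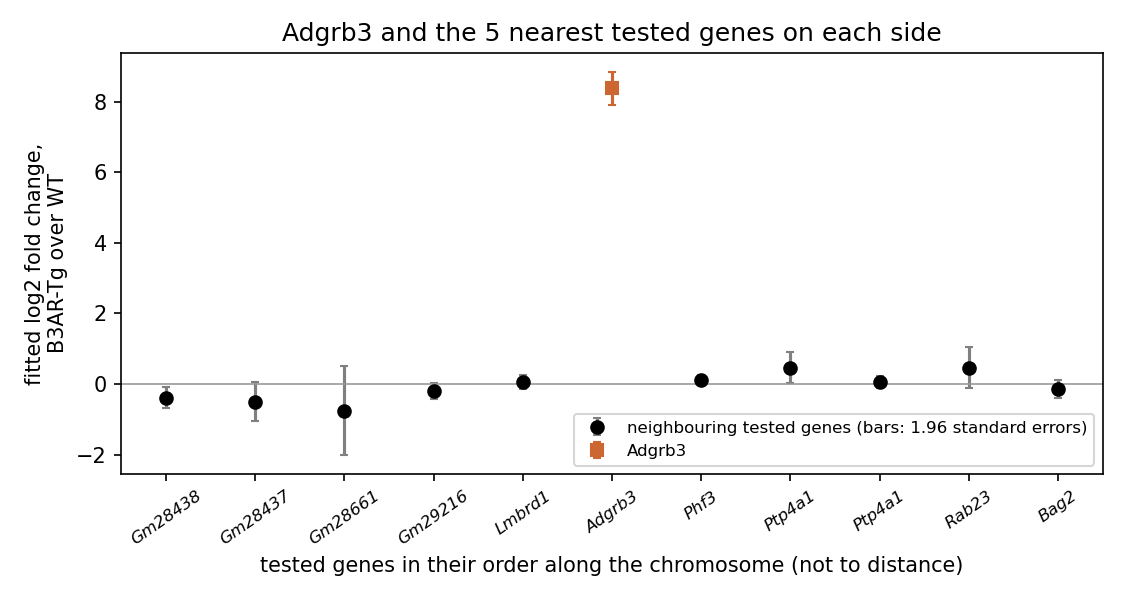
Log2 fold change (B3AR-Tg over WT, vertical axis) of Adgrb3 and of the 5 tested genes on each side, in gene order along chromosome 1 (horizontal axis); bars are 1.96 standard errors. Adgrb3 stands at 8.37 and its neighbours between −0.75 and 0.47. Gm28438, Gm28437, Gm28661 and Gm29216 are pseudogenes whose counts are uncertain.

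Known partners of these receptors were read from 2 lists. Of 24 extracellular partners, 9 were tested, 0 were called higher and 3 lower by edgeR, beside 2.88% of tested genes called lower, and the median log2 fold change was −0.49 beside 0.01 over all tested genes. Thbs1, named after its values were seen, was lower but not called (log2 fold change −1.32, SE 0.44, edgeR adjusted p = 0.0891). It was called with limma voom, with replicate number as a block, and without WT replicate 3 or B3AR-Tg replicate 1. The C1q-like partners of Adgrb3 were at or near 0: C1ql2 and C1ql4 had no count in any animal, C1ql1 at most 1 and C1ql3 at most 6.

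The 3 called partners were Col3a1, Tgm2 and Col4a1, and 2 of them are ligands of Adgrg1. Col3a1, the chain of collagen III, ran from 6.77 through 18.8 to 30.3 CPM in WT and from 1.85 through 5.22 to 8.10 CPM in B3AR-Tg, with a log2 fold change of −1.76 (SE 0.31, edgeR adjusted p = 0.00397). Tgm2, transglutaminase 2, fell from 266 ± 94.8 to 164 ± 37.2 CPM (log2 fold change −0.70, SE 0.18, edgeR adjusted p = 0.0286), a call lost under 7 of the other settings, among them each fit without WT replicate 4, WT replicate 8, or B3AR-Tg replicate 5, 6 or 8. Col4a1, a basement membrane collagen, fell from 158 ± 47.4 to 97.1 ± 18.8 CPM (log2 fold change −0.71, SE 0.16, edgeR adjusted p = 0.0161). Its call was lost with replicate number as a block.

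Fibroblast markers were lower in the same animals, with a median log2 fold change of −1.17. Of 7 tested, 3 were called lower, beside 2.88% of all tested genes. The part of fibroblast, endothelial or other non-myocyte RNA in Col3a1, Tgm2 and Col4a1 was not tested.

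Of 23 intracellular partners (among them ELMO and DOCK proteins, Rac1, Magi scaffolds, Gna12, Gna13, Rhoa and arrestins), 20 were tested. Of these, 0 were called by edgeR, beside 4.91% of all tested genes. An unadjusted p under 0.05, whose share over all tested genes was not counted, was found for 2. These 2 were Magi3, a junction scaffold (log2 fold change 0.38, adjusted p = 0.104), and Elmo1, an activator of Rac with DOCK proteins (−0.71, adjusted p = 0.245), both by the edgeR quasi-likelihood test. The median log2 fold change of the 20 was 0.08. Of the beta-adrenergic receptors, Adrb1 averaged 3.37 ± 0.979 CPM in the WT animals and 3.49 ± 0.816 CPM in the transgenic animals (SD, n = 8 each), and Adrb3 held 0 to 4 counts in WT and 0 to 3 in B3AR-Tg. The counts of Adrb3 did not separate the groups, and whether the transgene's transcripts can be counted under that gene is not given in the labels.

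Genes most alike in pattern were found by Pearson correlation of log2 CPM, as a description over animals that share depth and composition. The genes named stood highest in a search of all tested genes, with 8 animals per genotype. How high the best of so many correlations runs by chance was not tested. Over the 8 transgenic animals, the genes nearest to Adgrb3 were Terf2ip (r = 0.984), Pirt (0.956) and Klhl23 (0.944), and none of these 3 was called between genotypes. By the mean of the correlations within WT and within B3AR-Tg, Adgrf5 stood nearest to Cav1, the caveola protein gene (0.907), Gvin-ps7 (0.901) and Syne2 (0.889), and Adgrl4 to Casc3 (0.845), Gm9104 (0.808) and Fabp4 (0.808), the fatty acid carrier of capillary endothelium. By the same mean, Adgrl1 stood nearest to Dip2c (0.909), Pcdhb14 (0.89) and Arid5b (0.882), Adgrl2 to Nav2 (0.921), Poc1b (0.907) and Ghr (0.905), and Adgrg1 to Atxn1l (0.869), Lmtk2 (0.813) and Atg2a (0.805).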

How the data were processed

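Counts of reads per gene were deposited by the authors as whole numbers for 16 mouse ventricular myocyte libraries. Per the submitters' processing notes, Salmon and the build GRCm39 were named, with no role or version; the strand setting and the rounding are not given in the sources used here. Genotypes and replicate numbers were taken from the labels. Apart from the promoter windows, given on GRCm38, no gene coordinates are printed, because the annotation used (GENCODE M21, in which 35394 of the table's IDs were found, and RefSeq promoters) is on GRCm38; it served for gene order, lengths and sequence.

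Genotypes were compared with the edgeR 4.0.16 quasi-likelihood test in R 4.3.3 on the deposited counts, with TMM factors, filterByExpr (minimum count 10, minimum total count 15), genotype as the only term and Benjamini-Hochberg adjustment over 10945 tested genes; tests are two-sided. Log2 CPM used a prior count of 2. The test was tested on simulated data of 10945 genes: 89% of 200 genes changed by a log2 of 1 were recovered, 29% of those changed by 0.5, and 3.26% and 3.33% of calls were false.

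Members and lists were chosen with earlier results of these data known. Genes named are the 10 members, tested family genes, called partners, beta-adrenergic receptors, the 5 tested neighbours on each side and the 3 most alike genes; others are named as chosen after their values were seen. Alternatives were DESeq2 1.42.0, limma 3.58.1 voom with sample weights, other scalings, filters, thresholds, a replicate block and each animal left out in turn. Some genes of the neural and glial marker list, and the sum over that list, are not reported here.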

Additional observations from a re-analysis of the deposited data

Results flagged for a closer look

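In 19 groups of 8 animals (tested family genes by genotype), an animal at the end of its group was compared with Dixon's critical value for 8 values, on log2 CPM with a pseudocount of 0.1. 2 groups exceeded it, where chance at 1 in 20 gives 0.95. Adgra3 in B3AR-Tg replicate 1 stood at 24.4 CPM, with the next animal at 19.4 and the lowest at 17.5 CPM (gap over range 0.688). Celsr1 in B3AR-Tg replicate 3 stood at 3.65 CPM, with the next animal at 8.54 and the highest at 12.9 CPM (gap over range 0.671). The same B3AR-Tg replicate 3 held the lowest transgenic levels of Adgrl2 and Adgrl1, 17.3 and 7.83 CPM.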

How the results depend on the processing

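The number of called genes, 537 in the edgeR comparison, was 908 at an adjusted p under 0.1, 109 under 0.01, and 272 to 675 with 1 animal left out. Receptors called besides Adgrb3 (0) became 2 with limma voom, 0 to 2 with 1 animal left out. In the wider family they became 2 with limma voom, 1 without the low-count filter (Adgra1) and 0 to 2 with 1 animal left out. Partners called (3) became 5 with limma voom, 1 under 0.01 and 2 to 4 with 1 animal left out. The log2 fold change of Adgrb3 ran from 8.21 to 8.67 with 1 animal left out. Marker relations past the threshold (2) became 0 with library size only, where r was 0.95 for Adgrf5 and 0.88 for Adgrl4 (exact permutation, adjusted p = 0.0638 and 0.143), and 0 without the 2 farthest animals (r = 0.531 and 0.505). The rank of Adgrb3 per length, 4 by exon union, was 1 by longest coding transcript, a length chosen after seeing the data. The cause was not tested for these. Correlations with the fibroblast score, none past the threshold, changed sign in 8 instances, those of Adgrl1 and Adgrl4 in WT under both settings. Without the 2 farthest animals r became 0.229 for Adgrb3 and −0.429 for Adgrl4 in B3AR-Tg, and 0.0859 for Adgrl1, −0.609 for Adgrl2, 0.521 for Adgrl4 and −0.051 for Adgrf5 in WT. With library size only r became 0.0978 for Adgrl1 and 0.0271 for Adgrl4 in WT. No fitted log2 fold change of a tested receptor changed sign. Scaling by library size only moved the median log2 fold change of all genes to 0.08. With replicate number as a block, 230 genes, 0 receptors and 2 partners (Col3a1 and Thbs1) were called and the Adgrb3 value was 8.38. Same-numbered animals did not deviate together (0 of 8 pairs over a correlation of 0.1, from −0.219 to 0.0935). That check cannot exclude a pairing that left no shared deviation, and the labels name no pairs. Adgrb1, Adgrl3 and Adgrd1 were at or under the floor in many libraries, which limits what their counts can show.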

Other observations

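Adgra1, a receptor of the A group chosen here after its values were seen, was under the low-count filter and uneven among WT animals. Its WT counts were 5, 32, 1, 40, 1, 6, 1 and 64, and its B3AR-Tg counts were 0, 1, 2, 0, 0, 1, 11 and 1. WT replicates 2, 4 and 8 stood apart at 2.72, 3.57 and 6.29 CPM, and B3AR-Tg replicate 7 held most of the transgenic counts. Without the low-count filter its adjusted p was 0.0195 (edgeR quasi-likelihood test).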
